A study of Macaca mulatta with 28 samples.

Results

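The endocannabinoid receptors and the enzymes that make and break down their ligands were followed as a set of 9 genes in punches of the ventral tegmental area (VTA), which is the part of the midbrain in which the dopamine neurons of the mesolimbic pathway have their somata. The genes were chosen by name: the receptors CNR1 and CNR2, the synthetic enzymes DAGLA, DAGLB and NAPEPLD, and the hydrolases MGLL, FAAH, ABHD6 and ABHD12. Of these 9 genes, 8 were listed among the 16885 transcripts that carry a gene symbol, and FAAH was not analysed here. Each symbol stands for 1 Ensembl transcript, so the value of a gene is the estimated count of that transcript alone. The filter on low values, at least 5 counts in at least 3 animals, was passed by 5 of the genes (CNR1, DAGLA, ABHD6, ABHD12 and NAPEPLD), and 3 of them (CNR1, ABHD6 and NAPEPLD) had counts in 23 or more of the 28 animals.

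The tissue came from 28 male rhesus macaques, labelled wild type, with 1 bulk library per animal. The 17 drinkers had first been induced to drink ethanol by schedule-induced polydipsia and then had daily open access to ethanol beside water for many months, interrupted by periods of forced abstinence. The 11 controls were calorically yoked or housing controls that received no ethanol. Tissue was taken at the end of a last abstinence period, given as 30 days in the labels of drinkers and controls alike. By the drinking phenotype in the labels, 1 drinker was Low, 2 were Binge, 5 were Heavy and 9 were Very Heavy. The animals were studied in 2 cohorts. Cohort 1 held 8 controls, the Low drinker, 4 Heavy and 3 Very Heavy drinkers, and cohort 2 held 3 controls, both Binge drinkers, 1 Heavy and 6 Very Heavy drinkers, so that the category and the cohort are unevenly mixed. The cohort of the drinkers is stated by the study, while that of the controls was read from the cohort with which its source tables list them, and all values by cohort rest on this. The samples are punches of VTA tissue, and in such bulk RNA fewer cells of a type and less RNA per cell cannot be told apart. Replicate numbers below only name the animals within a category.

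Endocannabinoids are lipids that neurons release on demand from the membrane and that act backwards across the synapse on presynaptic CB1 receptors, where they lower transmitter release. In the VTA this retrograde signal is known to act on the terminals of GABA and glutamate neurons that contact dopamine cells. 2-Arachidonoylglycerol (2-AG) is made by the diacylglycerol lipases and is hydrolysed mainly by monoacylglycerol lipase, with smaller parts played by ABHD6 and ABHD12. Anandamide, the other main ligand, can be released from its membrane precursor by the phospholipase NAPE-PLD and is hydrolysed by fatty acid amide hydrolase.

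Library totals ran from 12303914 to 27338669 estimated counts, with a median of 22020291, and mitochondrial transcripts took 36.4% to 60.6% of them. A count of 0 allows up to 3 counts, or a level of 0.112 to 0.238 CPM (counts scaled to the size of the library) depending on the library, and this limit covers counting error only. The dopamine neuron markers TH, SLC6A3, SLC18A2 and DDC were above 0 in every animal, but their level varied widely: the summed CPM of 11 such markers ran from 31.8 to 1780 in controls, with a median of 254. Some defining markers of other cells were listed at 0, including SLC1A2 of astrocytes in all animals and RBFOX3 of neurons in 27 of 28. Over all symbols, 1309 transcripts (7.75%) were at 0 in all animals and a further 7247 (42.9%) were at 0 in some. Zeros are therefore frequent in this table, and those of the endocannabinoid genes are read below as the listed value of 1 transcript and not as absence of the gene.

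The short coding stretches below show where the enzymatic or signalling function of the 6 genes with counts in any animal lies. They are taken 5′ to 3′ on the coding strand from the RefSeq annotation of Mmul_10. In the receptors the capitals mark the codons of the aspartate-arginine-tyrosine motif through which such receptors couple to G proteins. In DAGLA, ABHD6 and ABHD12 they mark the codon of the catalytic serine, and in NAPEPLD the codons of the histidine-rich motif that binds the metal ions of the active site.
CNR1: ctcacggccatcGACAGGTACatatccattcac
CNR2: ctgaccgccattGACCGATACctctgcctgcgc
DAGLA: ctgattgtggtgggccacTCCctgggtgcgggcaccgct
ABHD6: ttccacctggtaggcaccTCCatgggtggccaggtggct
ABHD12: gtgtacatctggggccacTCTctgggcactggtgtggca
NAPEPLD: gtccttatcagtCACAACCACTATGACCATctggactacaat

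The CNR1 stretch lies at chr4:85189438-85189470 on the plus strand, in the single coding exon of a gene annotated from 85188814 to 85190232, whose protein has 472 residues. The CNR2 stretch lies at chr1:200883483-200883515 on the plus strand, also within 1 coding exon. On the minus strand, the DAGLA stretch lies at chr14:12438775-12438813 in 1 of 20 coding exons, and the NAPEPLD stretch at chr3:129533691-129533732 in 1 of 5. The ABHD6 stretch lies at chr2:114424279-114424317 on the plus strand, in 1 of 8 coding exons, and the ABHD12 stretch is joined from 2 exons of the gene at chr10:41226946-41315369, plus strand. RefSeq gives 1 transcript each for CNR1 and CNR2, 2 each for DAGLA, DAGLB and ABHD6, 3 each for MGLL and FAAH, 5 for ABHD12 and 7 for NAPEPLD. The table lists 1 transcript for each of the 8 genes in it, and the part that the choice of transcript plays in their values was not tested.

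CNR1, which encodes the CB1 receptor, was the only listed gene of the set with a count in all 28 animals. The estimated counts in the 11 controls had a lowest value of 31, a median of 140 and a highest of 188. The Low drinker had 150 counts, the Binge drinkers had 122 and 93, and the 5 Heavy drinkers had 281, 212, 89, 59 and 185. The 9 Very Heavy drinkers had 55, 56, 61, 13, 8, 63, 21, 130 and 41 counts. The Very Heavy drinkers held the 3 lowest counts of the series, and only Very Heavy drinker 8, with 130, came near the control median.

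CNR2, which encodes the CB2 receptor that is best known from immune cells, was at 0 in 27 animals. Control 5 alone had counts, 7 of them, which is 0.307 CPM. No comparison is made for this receptor.

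DAGLA and DAGLB, the diacylglycerol lipases that make 2-AG, were rarely counted. DAGLB was at 0 in all 28 animals. DAGLA had 19 counts in Control 4, 192 in Heavy drinker 1 and 43 in Heavy drinker 5, and was at 0 in the other 25 animals. These are 3 animals of 2 categories and both cohorts, and no fold change is given for DAGLA.

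NAPEPLD, the phospholipase that releases anandamide from its precursor, was counted in 26 of 28 animals. Controls had a lowest count of 39, a median of 114 and a highest of 230. The Low drinker had the highest count of the series, 312, the Binge drinkers had 223 and 106, and the Heavy drinkers had 102, 207, 217, 205 and 75. The Very Heavy drinkers had 108, 134, 0, 284, 24, 132, 56, 0 and 127 counts. Both animals at 0 were Very Heavy drinkers, 1 in each cohort, and of the other 7 Very Heavy drinkers 1 lay below every control, with 24 counts, 1 exceeded every control, and 5 lay within their range.

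Among the hydrolases, MGLL, the main 2-AG hydrolase, was at 0 in all 28 animals. ABHD12, whose loss in people causes a neurodegenerative disease, was at 0 in 20 animals and had 2 to 19 counts in the other 8, which were 5 controls, 1 Binge and 2 Very Heavy drinkers. ABHD6, a membrane-bound 2-AG hydrolase of the postsynaptic side, was counted in 23 animals. Its counts in controls had a lowest value of 0, a median of 290 and a highest of 851, with 3 of the 11 controls at 0. The Low drinker had 334, the Binge drinkers had 855 and 453, and the Heavy drinkers had 631, 134, 762, 0 and 204. The Very Heavy drinkers had 822, 256, 802, 567, 717, 134, 195, 36 and 0. Zeros and high counts thus occurred side by side within controls, Heavy and Very Heavy drinkers, and the categories overlapped almost completely.

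**Figure D1:**
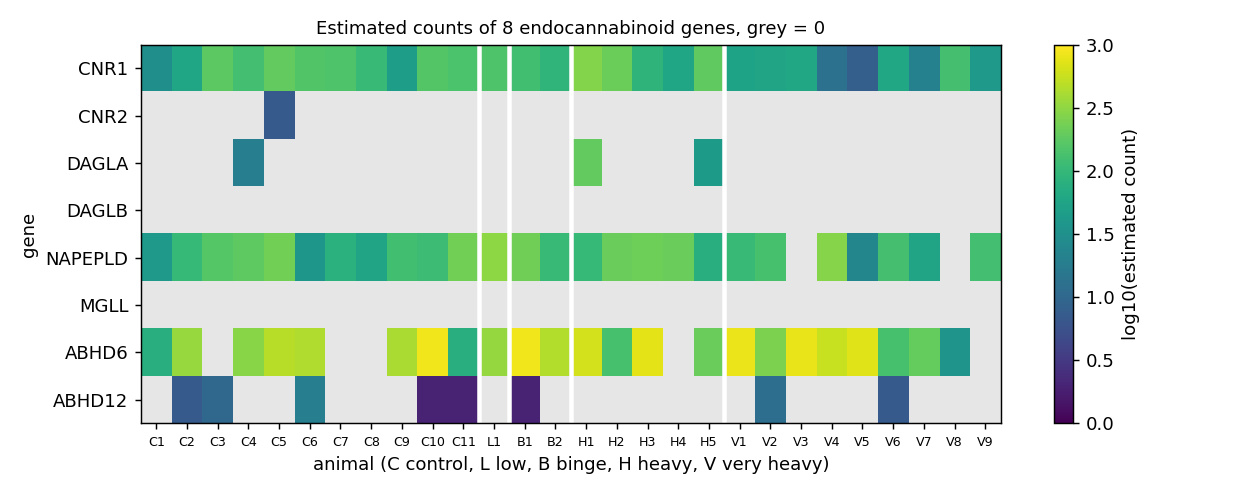
Estimated counts of the 8 listed genes (vertical axis) in each of the 28 animals (horizontal axis, grouped as controls, Low, Binge, Heavy and Very Heavy drinkers), as log10 of the count, with grey for a count of 0. CNR1 is coloured in all 28 animals, NAPEPLD in 26 and ABHD6 in 23, while DAGLB and MGLL are grey throughout.

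The spread between animals set how much any comparison could show. In the model of all animals, the biological coefficient of variation, which is the spread between animals beyond counting error as a fraction of the mean, was 0.660 for CNR1, 0.899 for NAPEPLD and 1.51 for ABHD6, against a median of 0.437 over 13769 transcripts. They stood at the 60.8, 68.2 and 79.8 percentiles of all transcripts. DAGLA and ABHD12, which owed their place past the filter to a few animals, stood at the 99.8 and 92.1 percentiles.

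Whether a history of drinking changed the set was first asked with all drinkers against all controls. On the scale of TMM-scaled CPM, the level of CNR1 in the 17 drinkers was 4.35 ± 3.12 (SD) and in the 11 controls 5.38 ± 1.84 (SD). ABHD6 was 19.6 ± 15.7 in the same drinkers and 12.7 ± 12.1 in the same controls. NAPEPLD was 6.25 ± 4.33 and 5.68 ± 2.83. All of these differences were smaller than the spread between animals.

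By edgeR's quasi-likelihood test with Benjamini-Hochberg adjustment, the log2 fold change of CNR1 was -0.31 (SE 0.368, adjusted p = 1.00), with an approximate 95% interval from -1.03 to 0.41. That of ABHD6 was 0.63 (SE 0.792), with an interval from -0.93 to 2.18, and that of NAPEPLD was 0.14 (SE 0.529), with an interval from -0.90 to 1.18. With limma-voom the values were -0.69 (SE 0.368) for CNR1, 1.68 (SE 1.78) for ABHD6 and -0.60 (SE 0.741) for NAPEPLD. None of the 5 genes tested passed an adjusted p of 0.05, nor an unadjusted one, by edgeR. Of all 13769 transcripts, 0% passed the adjusted threshold, 4.57% had an unadjusted p under 0.05, and DESeq2 called 11. Differences within these intervals were not distinguishable from 0 with these animals.

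The drinking categories were compared next, and the fitted differences of CNR1 were larger than that between all drinkers and controls. Its level was 6.95 ± 3.61 CPM (SD, n = 5) in Heavy drinkers and 2.45 ± 1.72 CPM (SD, n = 9) in Very Heavy drinkers, on either side of the controls. The lowest and highest values were 2.25 and 8.24 CPM in controls, 2.54 and 11.4 CPM in Heavy drinkers and 0.443 and 5.90 CPM in Very Heavy drinkers. The Low drinker was at 7.98 CPM and the Binge drinkers were at 4.53 ± 0.419 CPM (SD, n = 2). Of the 9 Very Heavy drinkers, 8 lay below the control median and 4 below every control, and all 9 lay below the median of Heavy drinkers. Of the 5 Heavy drinkers, 3 lay above every control.

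**Figure D2:**
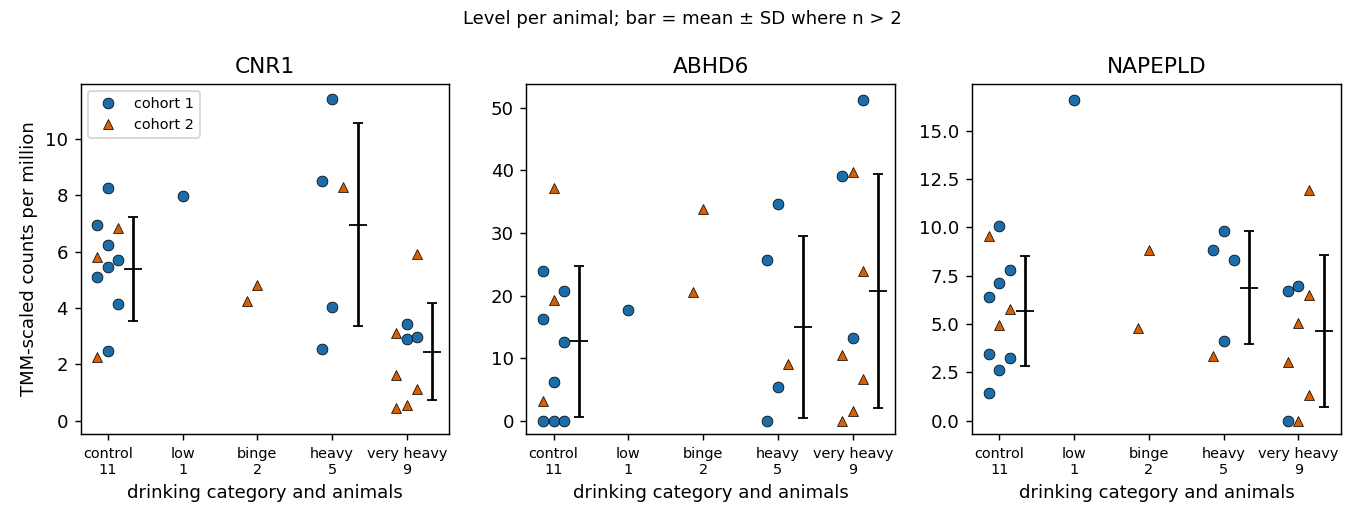
TMM-scaled CPM of CNR1, ABHD6 and NAPEPLD (vertical axis, linear) in each animal by drinking category (horizontal axis, number of animals below the name), with circles for cohort 1, triangles for cohort 2 and bars for the mean ± SD. For CNR1 the Very Heavy drinkers lie between 0.443 and 5.90 CPM and the controls between 2.25 and 8.24 CPM, while for ABHD6 and NAPEPLD the controls, Heavy and Very Heavy drinkers overlap.

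In a fit with the 5 categories, the log2 fold change of CNR1 in Very Heavy drinkers against controls was -1.13 (SE 0.382), with an approximate 95% interval from -1.88 to -0.38, which is 0.456 times the control level. The unadjusted p was 0.0064 and the adjusted p was 0.766 by edgeR's quasi-likelihood test. Against Heavy drinkers, Very Heavy drinkers stood at -1.50 (SE 0.449), with an interval from -2.38 to -0.62, or 0.353 times their level. The unadjusted p was 0.00252 and the adjusted p was 0.613. Heavy drinkers against controls stood at 0.37 (SE 0.438), with an interval from -0.49 to 1.23. Over all transcripts an unadjusted p under 0.05 was reached by 4.62%, 6.8% and 7.15% in these 3 comparisons, in the order given.

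The same threshold was also reached by the rarely counted genes. DAGLA, with counts in 2 of 5 Heavy drinkers, 0 of 9 Very Heavy drinkers and 1 of 11 controls, had unadjusted p-values of 0.0387, 0.00129 and 0.0165 in the 3 comparisons. ABHD12, with counts in 0 of 5 Heavy drinkers, 2 of 9 Very Heavy drinkers and 5 of 11 controls, had 0.0322 for Very Heavy against Heavy drinkers and 0.0204 for Heavy drinkers against controls. The adjusted p of these values lay between 0.613 and 1.00 by edgeR's test, and each rests on a few animals with counts beside many at 0.

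CNR1 thus passed no threshold corrected for all transcripts in any of these comparisons, and ordered by p it stood at 106 of 13769 against controls and at 43 of 13769 against Heavy drinkers. An unadjusted p under 0.05 with a lower level was reached by 2.33% of transcripts in Very Heavy drinkers against controls and by 2.69% against Heavy drinkers, and an adjusted one by 0% in either, while DESeq2 called 22 and 54 transcripts, CNR1 not among them. These comparisons share animals and are not independent of each other. CNR1 was taken further than the other genes after its values were seen.

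Because 6 of the 9 Very Heavy drinkers belonged to cohort 2, the same values were also compared within each cohort. In cohort 1, CNR1 was 3.10 ± 0.285 CPM (SD, n = 3) in Very Heavy drinkers and 5.53 ± 1.75 CPM (SD, n = 8) in controls. In cohort 2 it was 2.13 ± 2.08 CPM (SD, n = 6) in Very Heavy drinkers and 4.97 ± 2.41 CPM (SD, n = 3) in controls. The mean was lower in Very Heavy drinkers in both cohorts, and the groups overlapped in both.

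Fitted within cohort 1 alone, the log2 fold change in Very Heavy drinkers against controls was -0.84 (SE 0.445, unadjusted p = 0.0805), and within cohort 2 alone it was -1.22 (SE 0.725, unadjusted p = 0.122), by edgeR's test. With cohort as a term in the fit of all animals it was -1.06 (SE 0.403, unadjusted p = 0.0147, adjusted p = 0.624). Against Heavy drinkers it was -1.10 (SE 0.492) in cohort 1. In cohort 2 it was -1.96 (SE 0.987) against 1 Heavy drinker, so that this SE rests on the spread within the other groups.

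The sign did not rest on 1 animal. With each animal left out in turn, the log2 fold change of CNR1 in Very Heavy drinkers stayed between -1.41 and -0.99 against controls and between -1.78 and -1.26 against Heavy drinkers. The adjusted p stayed above 0.05 throughout.

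**Figure D3:**
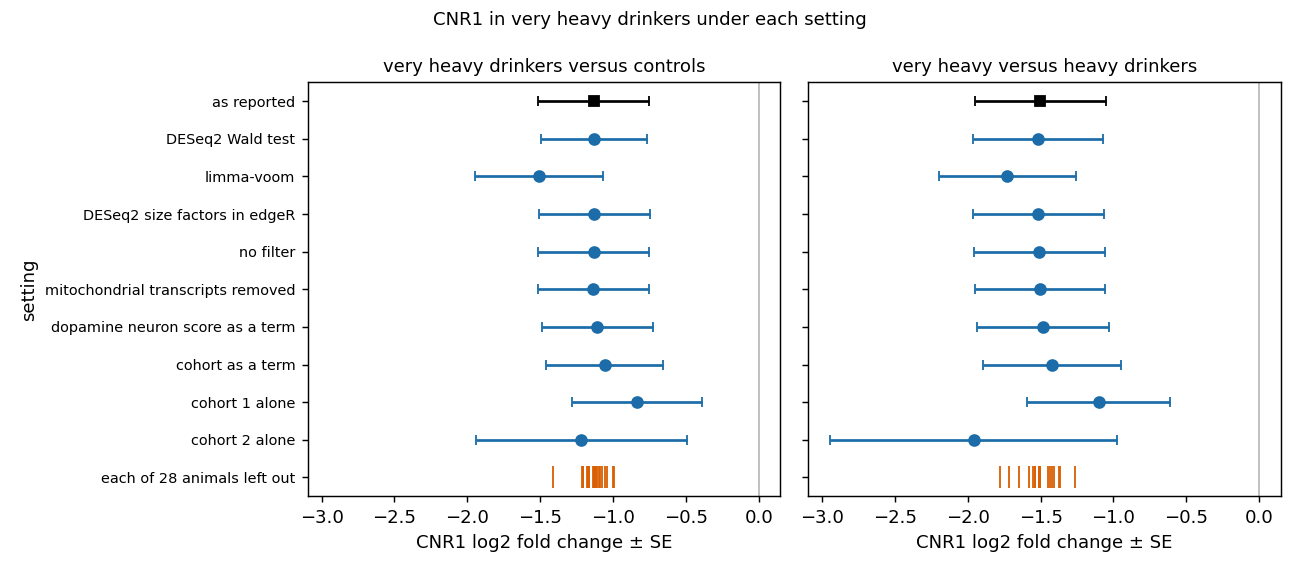
CNR1 log2 fold change (horizontal axis, ± SE) in Very Heavy drinkers against controls (left) and against Heavy drinkers (right) under each setting of the fit (vertical axis), with ticks in the lowest row for fits with 1 animal left out. All points lie below 0, from -1.51 to -0.84 on the left and from -1.96 to -1.10 on the right, and the fits within 1 cohort have the widest errors. The point at -1.96 is from cohort 2 alone, with 1 Heavy drinker.

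For the other 2 genes counted in most animals, the means of controls, Heavy and Very Heavy drinkers differed by less than the SDs within these groups. ABHD6 was 14.9 ± 14.5 CPM (SD, n = 5) in Heavy and 20.7 ± 18.7 CPM (SD, n = 9) in Very Heavy drinkers, against 12.7 CPM in controls. Its log2 fold change was 0.70 (SE 0.945) in Very Heavy and 0.24 (SE 1.13) in Heavy drinkers against controls. Within cohort 1 alone the value in Very Heavy drinkers was 1.79 (SE 1.46), and within cohort 2 alone the values turned to -0.53 (SE 1.20) in Very Heavy drinkers and -1.11 (SE 2.14) in the 1 Heavy drinker. NAPEPLD was 6.89 ± 2.93 CPM (SD, n = 5) in Heavy and 4.62 ± 3.93 CPM (SD, n = 9) in Very Heavy drinkers, against 5.68 CPM in controls. Its log2 fold change was -0.30 (SE 0.621) in Very Heavy and 0.28 (SE 0.732) in Heavy drinkers. Among these 3 groups the means of NAPEPLD stood in the order of those of CNR1. In cohort 2 the 1 Heavy drinker was at 3.36 CPM and the Very Heavy drinkers at 4.65 ± 4.29 CPM (SD, n = 6). Within that cohort alone the fold changes turned to -1.01 (SE 1.79) for Heavy drinkers against controls and 0.47 (SE 1.64) for Very Heavy against Heavy drinkers. For NAPEPLD and ABHD6 alike, the SE of values with this 1 Heavy drinker rests on the spread within the other groups. With limma-voom the value of NAPEPLD in Very Heavy drinkers was -1.73 (SE 0.868) against controls and -2.09 (SE 0.922, unadjusted p = 0.0322, adjusted p = 0.713) against Heavy drinkers, and that of ABHD6 against controls was 1.52 (SE 1.81).

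The cohorts themselves were then compared, since the set might differ between them or respond differently to drinking. With arm in the model, cohort 2 against cohort 1 gave log2 fold changes of -0.51 (SE 0.369) for CNR1, 0.03 (SE 0.779) for ABHD6 and -0.27 (SE 0.533) for NAPEPLD, none with an unadjusted p under 0.05, where 9.8% of all transcripts had one and 0.0436% passed the adjusted threshold.

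Drinkers against controls within cohort 1 gave -0.01 (SE 0.351) for CNR1, 1.23 (SE 1.12) for ABHD6 and 0.55 (SE 0.654) for NAPEPLD. Within cohort 2 the values were -0.57 (SE 0.745) for CNR1, -0.28 (SE 1.07) for ABHD6 and -0.44 (SE 0.880) for NAPEPLD. With limma-voom ABHD6 was at 2.96 (SE 2.73) in cohort 1 and -1.15 (SE 1.62) in cohort 2, and NAPEPLD at -0.14 (SE 0.981) and -1.28 (SE 1.14). ABHD6 and NAPEPLD had edgeR fold changes of opposite sign in the cohorts, but neither sign was distinguishable from 0. Of all transcripts, 0.0382% passed the adjusted threshold in cohort 1 and 0% in cohort 2, and none of them was a gene of the set, while DESeq2 called 183 and 22, with CNR1, ABHD6 and NAPEPLD not among them. An unadjusted p under 0.05 was reached by 10.2% and 3.76% of transcripts, and by none of the set.

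The difference between the cohorts' effects, tested as an interaction, was -0.55 (SE 0.783) for CNR1, -1.52 (SE 1.66) for ABHD6 and -0.98 (SE 1.13) for NAPEPLD. That of ABHD6 was -4.12 (SE 3.22) with limma-voom and -0.70 without Control 10. The adjusted p of the 3 values lay between 0.917 and 0.961 by edgeR's test, where the adjusted threshold was passed by 0.0145% of transcripts and the unadjusted one by 9.62%. A sign that differs between the cohorts is therefore not shown to be a difference for any of these genes.

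**Figure D4:**
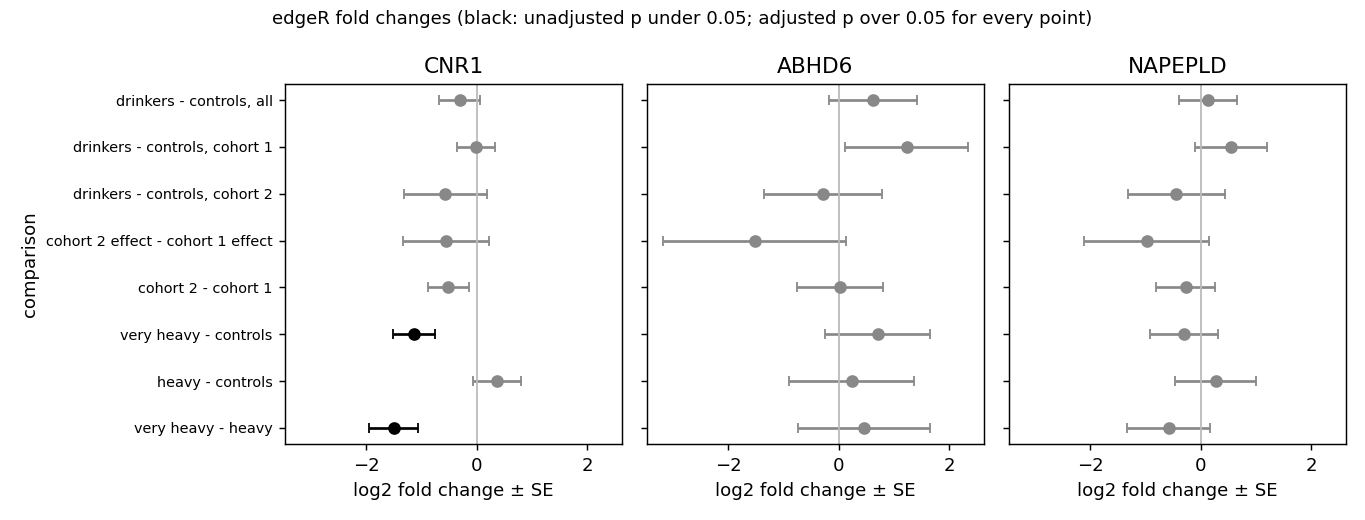
edgeR log2 fold change ± SE (horizontal axis) of CNR1, ABHD6 and NAPEPLD in each of 8 comparisons (vertical axis), in black where the unadjusted p was under 0.05 and in grey otherwise. CNR1 is black at -1.13 and -1.50, for Very Heavy drinkers against controls and against Heavy drinkers, and no point passed an adjusted p of 0.05.

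Genes around the core set were followed as a list of 26: other receptors for these lipids, proteins that bind CB1, alternative routes of synthesis and breakdown, carriers, and the glutamate receptors and phospholipases C beta that start 2-AG production. All 26 were listed and 22 passed the filter, the exceptions being GPR55, GPR119, PLAAT5 and NAAA, of which GPR119 and PLAAT5 were at 0 in all animals. Of the 22, 0 passed an adjusted p of 0.05 in any of the 8 comparisons by edgeR's test. At an unadjusted p under 0.05, 0 of 22 differed between all drinkers and controls, 3 were higher and 1 lower in drinkers of cohort 1, and 0 of 21 differed in cohort 2. The share in cohort 1, 4 of 22, stands beside 10.2% of all transcripts. The median log2 fold change of the list was -0.01 in all animals, 0.04 in cohort 1 and -0.07 in cohort 2, beside medians of 0.00, 0.00 and 0.01 over all transcripts tested.

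Lower unadjusted p-values than those of any other gene of the list were found in cohort 1 for ABHD4, a lipase of an alternative route to anandamide, and CNRIP1, which binds the tail of CB1. ABHD4 was 74.9 ± 9.23 CPM (SD, n = 8) in drinkers and 94.2 ± 11.6 CPM (SD, n = 8) in controls of cohort 1, a log2 fold change of -0.33 (SE 0.0873, unadjusted p = 0.00162, adjusted p = 0.188). The highest drinker was at 86.9 CPM and the lowest control at 84.0 CPM, so the groups barely overlapped. In cohort 2 the value was 0.25 (SE 0.125, unadjusted p = 0.0648), and the difference between cohorts was 0.58 (SE 0.154, unadjusted p = 0.00081, adjusted p = 0.207).

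CNRIP1 was 93.2 ± 15.7 CPM (SD, n = 8) in drinkers and 70.0 ± 11.4 CPM (SD, n = 8) in controls of cohort 1, a log2 fold change of 0.42 (SE 0.115, unadjusted p = 0.00213, adjusted p = 0.197). In cohort 2 it was 68.7 ± 11.8 CPM (SD, n = 9) in drinkers and 74.6 ± 12.7 CPM (SD, n = 3) in controls, and the difference between cohorts was -0.53 (SE 0.191, adjusted p = 0.338). The drinkers of cohort 1 lay between 73.0 and 116 CPM and the controls between 58.3 and 92.8 CPM, so the groups overlapped. In cohort 2 the log2 fold change was -0.12 (SE 0.150, unadjusted p = 0.455), which is not distinguishable from 0. Neither gene passed the corrected threshold in either cohort by edgeR's test. DESeq2 called more transcripts in both cohorts, and its values for these genes were not examined. In cohort 1 the summed CPM of neuron markers, mostly SNAP25, had a median of 1003 (731 to 1489) in drinkers and 739 (397 to 1191) in controls. That of GABA neuron markers had medians of 290.1 and 242, that of glutamate neuron markers 156 and 104, and that of astrocyte markers 678 and 619. Lower in drinkers were the medians of dopamine neuron markers, at 266 and 334, and of oligodendrocyte markers, at 15875 and 17936. So were those of microglia markers, at 354 and 394, endothelial markers, at 84.3 and 88.2, and serotonin neuron markers, at 0.446 and 0.514. The part of any of these cell types in the values of ABHD4 and CNRIP1 was not tested.

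In all animals the lowest unadjusted p-values of the list belonged to PLCB2, a phospholipase C beta, at -0.40 (SE 0.201, unadjusted p = 0.0591), and to ALOX12, a lipoxygenase that can oxidise arachidonate and its derivatives, at 0.85 (SE 0.447, unadjusted p = 0.0675). In cohort 2, beside ABHD4, it was PLA2G4E, an acyltransferase that makes the precursor of anandamide, at 1.36 (SE 0.753, unadjusted p = 0.0959), from at most 21 counts in any animal. None of the 3 was past the threshold.

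**Figure D5:**
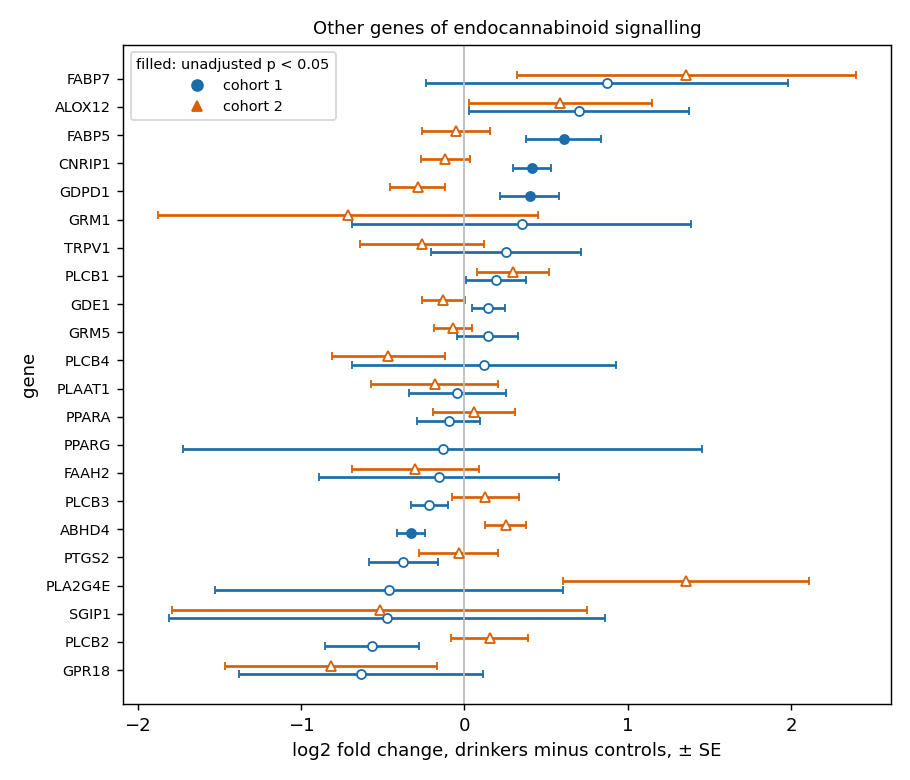
edgeR log2 fold change ± SE (horizontal axis) of drinkers against controls for the 22 other genes of endocannabinoid signalling past the filter (vertical axis, ordered by cohort 1), in cohort 1 (circles) and cohort 2 (triangles, 21 genes), filled where the unadjusted p was under 0.05. The 4 filled points are all of cohort 1, with ABHD4 at -0.33 and CNRIP1 at 0.42, and no point passed an adjusted p of 0.05.

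Levels of cell type markers were set beside CNR1, because a punch can hold more or fewer neurons. The summed CPM of the 4 neuron markers, nearly all of it from SNAP25 (a median of 742 CPM in all animals, with RBFOX3 and SYT1 at 0 in 27 and 24 animals and STMN2 at a median of 5.47 CPM), had a median of 754 in controls (397 to 1192), 927 in Heavy drinkers (731 to 1489) and 741 in Very Heavy drinkers (505 to 1444). The summed CPM of the 11 dopamine neuron markers had medians of 254, 245 and 188 in the same groups, with highest values of 1780, 1354 and 1674. Those of the 3 GABA neuron markers were 246 (111 to 347), 301 (132 to 353) and 224 (148 to 279). The medians of the neuron markers and of the GABA neuron markers both stood in the order of CNR1. Correlations used another measure, the mean log2 CPM of a list. Across the 28 animals, r between CNR1 and the GABA neuron markers was -0.112 (permutation p = 0.571) and rho was -0.0898 (permutation p = 0.648). That r was -0.169 without the 2 animals farthest from the median of the markers, -0.0358 in cohort 1 and -0.301 in cohort 2. The correlation with the neuron markers is given below. With a dopamine neuron score as a further term, the log2 fold change of CNR1 in Very Heavy drinkers was -1.11 against controls and -1.48 against Heavy drinkers. The part of the neuron and GABA neuron markers in the difference from Heavy drinkers was not tested.

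Across the 28 animals, CNR1 and NAPEPLD were each related to 8 marker lists and to each other, 17 relations in all. None passed after adjustment, the lowest adjusted permutation p being 0.260 for Pearson's r and 0.269 for Spearman's rho. For CNR1 and the neuron markers r was 0.305 (permutation p = 0.113) and rho was 0.402 (permutation p = 0.0350), and r was 0.108 without the 2 animals farthest from the median of the markers and 0.392 without the 2 farthest from the median of CNR1. For CNR1 and the microglia markers r was -0.237 (permutation p = 0.224) and rho was -0.378 (permutation p = 0.0475). For NAPEPLD and the glutamate neuron markers SLC17A6 and SLC17A7, r was -0.447 (permutation p = 0.0153) and rho was -0.439 (permutation p = 0.0204), and r was -0.241 without the 2 farthest animals. Within cohorts that r was -0.217 in cohort 1 and -0.778 in cohort 2. For CNR1 and NAPEPLD themselves r was 0.0707 and rho was 0.115.

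The transcripts whose log2 CPM followed CNR1 most closely over the 28 animals, by Spearman's rho, were GRIN2A, an NMDA receptor subunit (rho = 0.736), SLIT1, an axon guidance ligand (rho = 0.692), and FRMPD4, a postsynaptic scaffold protein (rho = 0.681). Their rho was 0.550, 0.700 and 0.509 within cohort 1 and 0.874, 0.622 and 0.727 within cohort 2. For NAPEPLD they included PEX2, a peroxisome assembly protein (rho = 0.747), and ECI2, an enzyme of fatty acid oxidation (rho = 0.645). For ABHD6 they were PRTFDC1 (rho = 0.639), EXOSC7, a subunit of the RNA exosome (rho = 0.635), and MRPL36, a mitochondrial ribosomal protein (rho = 0.628).

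These are the highest values among all transcripts past the filter and are given as a description, since all points share the library and its depth. For DAGLA the 3 were CTU2, STK39 and PCTP, at 0.624 to 0.636, and for ABHD12 they were DCAF10, PKNOX1 and KIF18B, at 0.630 to 0.646, and both lists rest on the few animals with counts. Within the set, CNR1 had a rho of 0.404 with DAGLA, 0.115 with NAPEPLD and -0.137 with ABHD6, and ABHD6 had 0.0917 with NAPEPLD, so that the receptor and the enzymes counted in most animals did not follow one another closely.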

How the data were processed

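Bulk RNA from VTA punches of 28 macaques was used. The authors trimmed paired reads with Trim Galore 0.6.7, quantified them with Salmon 1.9.0 on Mmul_10, and deposited estimated counts that were not normalized, 1 transcript per symbol; how that transcript was chosen is not given in the sources used here. Groups follow the labels, and cohorts follow the paper's source tables, for controls only by the drinkers they are listed with. Estimated counts were rounded, the 1 entry without a symbol (1.16e-05% of counts) was left out, and transcripts reaching 5 counts in 3 or more animals of the fit were tested with edgeR 4.0.16 (TMM, quasi-likelihood test, Benjamini-Hochberg over all transcripts tested) in R 4.3.3. CPM are TMM-scaled, and log2 CPM use a prior count of 2. Standard errors of edgeR were derived from the fold change and the F statistic of its test. Intervals scale them to 95% by the normal distribution, so they are approximate and somewhat narrower than the test implies. Alternatives used DESeq2 1.42.0 and limma 3.58.1. Correlations (100000 permutations) and figures used Python 3.11.15 and scipy 1.17.1. The fits were run on simulated counts with less spread between animals than CNR1, ABHD6 and NAPEPLD have, so those runs do not cover these genes. Marker lists are given as summed CPM and correlated as mean log2 CPM, and the dopamine neuron score is their first principal component. The genes, the lists and the rule for named genes (all 9 genes, and of the other 26 the 2 with the lowest unadjusted p in all animals and in each cohort) were chosen with earlier results of these data known. The most alike pair of 378 library pairs had equal counts at 1.77% of the transcripts above 0 in either library, so each library was counted as 1 animal. The library totals limit the precision of low counts. Of the transcripts most like NAPEPLD, 1 is not reported here.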

Additional observations from a re-analysis of the deposited data

How the results depend on the processing

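The 24 fold changes of CNR1, ABHD6 and NAPEPLD were refitted under 766 alternatives, and 733 kept their direction and stayed above an adjusted p of 0.05, while the other 33 changed sign and none passed the threshold. CNR1 in Very Heavy drinkers kept its sign throughout; it could not be fitted where 10 counts were asked of every animal, since 1 Very Heavy drinker had 8. In cohort 1 the value of CNR1 was 0.0068 with DESeq2 and 0.0080 with its size factors in edgeR, and -0.25 to 0.094 with single animals left out. NAPEPLD in all drinkers was -0.60 with limma-voom, -0.060 with only Heavy and Very Heavy drinkers and -0.019 to 0.25 with single animals left out, the lowest without the Low drinker, and in cohort 1 it was -0.14 with limma-voom. ABHD6 ranged from -0.80 to 0.53 in cohort 2 (0.53 without Control 10), from -0.32 to 0.21 between cohorts and from -0.34 to 0.56 in Heavy drinkers with single animals left out. Within cohort 2 alone ABHD6 was -0.53 in Very Heavy and -1.11 in Heavy drinkers against controls, and NAPEPLD was -1.01 in Heavy drinkers against controls and 0.47 in Very Heavy against Heavy drinkers. Without a change of sign, limma-voom gave ABHD6 1.68 in all drinkers, 2.96 in cohort 1, -1.15 in cohort 2, -4.12 for the difference between cohorts, 1.52 in Very Heavy and 0.91 in Heavy drinkers, and NAPEPLD -1.28 in cohort 2, -1.73 in Very Heavy drinkers against controls and -2.09 against Heavy drinkers. Without Control 10 the difference of ABHD6 between cohorts was -0.70, and within cohort 1 alone ABHD6 in Very Heavy drinkers was 1.79 against controls and 1.06 against Heavy drinkers. The fits within 1 cohort by category were added after seeing the data. The cause of these changes was not tested.

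Counts of transcripts past the adjusted threshold depended on the test. With DESeq2 they were 11 for all drinkers, 183 in cohort 1 (5 with edgeR), 22 in cohort 2, 157 for the difference between cohorts (2 with edgeR), 121 for cohort (6 with edgeR), and 22, 48 and 54 for Very Heavy against controls, Heavy against controls and Very Heavy against Heavy. In cohort 1 there were 3 with limma-voom, 3 without a filter, 3 with at least 10 counts in every animal, 2 with the dopamine neuron score and 1 to 4 with single animals left out. In cohort 2 there were 3 with limma-voom and 0 to 1 with single animals left out. The difference between cohorts gave 0 with the score and 0 to 4 with single animals left out. Cohort gave 23 with limma-voom, 3 with DESeq2 size factors, 10 with the stricter filter, 11 with the score and 0 to 8 with single animals left out. Within cohort 1 alone Very Heavy against controls gave 42, Heavy against controls 1 and Very Heavy against Heavy 1, and within cohort 2 alone the last 2 comparisons gave 2 each. Very Heavy against Heavy gave 0 to 1 with single animals left out.

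No paired analysis was possible because replicate numbers only name animals; caloric controls were each yoked to a drinker, but which to which is not given in the sources used here. The number of controls in cohort 2, 3, and the 1 Heavy drinker there limit within-cohort values. Counts of 0 in this table most limit what can be said of 5 of the 8 listed genes. They also limit ABHD6, at 0 in 5 animals, and NAPEPLD, at 0 in 2.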
